A study of Homo sapiens with 8 samples.

Results

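A set of 10 well-known target genes of the hypoxia-inducible factors was followed by SON signal in 786-O cells after 3 h with the HIF-2α inhibitor PT2399. 786-O is an established line from a human renal carcinoma of the clear cell type. The genes were VEGFA, ANGPTL4, ADM, EPO, TGFA, NDRG1, CA9, SLC7A5, CXCR4 and BNIP3, and each was placed by its transcription start site (TSS) on hg19, given to the nearest 1 kb. Every genomic window that holds a TSS was taken as a member window. This gave 9 overlapping windows of 100 kb and 9 of 50 kb for each of the 10 genes, or 90 of the 278316 deposited windows of 100 kb and 90 of the 556938 of 50 kb. The cells, from 1 line kept at atmospheric oxygen, received 2 µM PT2399 or an equal volume of DMSO vehicle for 3 h. Each treatment has 2 pulldowns with an antibody to SON and 2 inputs, 8 libraries in all. In 4 of the 8 libraries the title disagrees with the antibody or treatment field, and the titles were followed. The direction of every change rests on the deposited column names control and treatment, with DMSO taken as the control.

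Cells with normal oxygen destroy HIF-α proteins through VHL, the ubiquitin ligase component that is lost in most clear cell renal carcinomas. 786-O cells lack working VHL and make HIF-2α but no full-length HIF-1α, so that hypoxia target genes can be active in oxygen. PT2399 keeps HIF-2α from pairing with ARNT, the partner it needs to bind DNA. SON helps to build nuclear speckles, bodies rich in splicing factors next to which many active genes lie. In TSA-seq, biotin is deposited on chromatin around the SON antibody, and a higher signal in the pulled-down DNA marks chromatin nearer to speckles.

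The values are the authors' log2 concentrations, 1 mean per treatment and window, so that no spread between the 2 replicates can be given and the depth of each library is unknown. The p-value and FDR of the authors' deposited tables are the measure of error, and since nothing states that replicates were separate cultures, they may reflect technical spread. A window passed the test at an FDR of at most 0.01. The 9 windows of a gene share most of their DNA and are not replicates, and a range over them shows how the value varies with window placement only. Changes are PT2399 minus DMSO. Windows before or after a TSS are placed by distance along the chromosome, whichever strand the gene is on. The lowest deposited levels were -0.07 for DMSO and -0.11 for PT2399, called the floor, and a window with at least 2 in both treatments is called measured. The median change of all measured 100 kb windows was -0.13, and 67.5% of them were lower with PT2399. Measured windows made up 32.4% of all 100 kb windows.

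Member windows were chosen to hold a TSS, whatever part of the gene or promoter they cover, and 4 promoter stretches are shown here. They belong to the 2 members with the lowest FDR or the lowest change among those well above the floor (SLC7A5 and ADM) and to 2 with changes near 0 (BNIP3 and CA9). Each stretch is 80 bases of RefSeq sequence on GRCh38.p14, read 5′ to 3′ on the gene's own strand, and these coordinates cannot be set against the hg19 windows. Capitals mark ACGTG or GCGTG, the core of the hypoxia response element that HIF binds, on either strand, so that the reverse strand reads CACGT or CACGC and CACGTG counts as a match on each strand.
SLC7A5 (chr16:87869608-87869687, minus strand): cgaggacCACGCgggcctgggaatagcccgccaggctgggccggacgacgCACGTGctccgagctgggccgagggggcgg
ADM (chr11:10304933-10305012, plus strand): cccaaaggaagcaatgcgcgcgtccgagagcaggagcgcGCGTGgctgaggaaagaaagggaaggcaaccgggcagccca
BNIP3 (chr10:131982004-131982083, minus strand): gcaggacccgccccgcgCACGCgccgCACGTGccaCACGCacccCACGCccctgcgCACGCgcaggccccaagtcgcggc
CA9 (chr9:35673848-35673927, plus strand): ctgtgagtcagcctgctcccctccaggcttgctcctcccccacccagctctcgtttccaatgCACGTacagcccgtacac

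BNIP3 carried the most matches, 6 in the 250 bases before its start, a number that 0.820% of 22199 promoters of protein-coding genes reached. SLC7A5 carried 3, which 9.5% of these promoters reached, and ADM and CA9 carried 1 each. Of the 10 members, 8 were matched to the promoter table, with 11 promoters, and 8 of these 11 promoters (72.7%), from 7 of the 8 genes, had a match. The share of all protein-coding promoters with a match was 49.3%. A match of 5 letters is a description of the sequence and no bound site.

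Before treatment, the members lay at very different SON levels. EPO, the gene of erythropoietin, stood highest, with a mean DMSO level of 11.61 over its 9 windows of 100 kb (range 11.32 to 11.87), above 99.6% of all 10 kb positions of the genome averaged in the same way. SLC7A5, which encodes the amino acid transporter LAT1, followed with 11.09 (10.78 to 11.28), a range below that of EPO. ANGPTL4, which encodes a secreted inhibitor of lipoprotein lipase, had 10.78 (10.48 to 10.94) and CA9, which encodes the cell surface carbonic anhydrase IX, had 10.71 (10.38 to 10.91). VEGFA, the gene of the main angiogenic growth factor, had 10.49 (10.38 to 10.57). These 5 genes were above 95.5% or more of all positions, and from SLC7A5 to VEGFA each range overlapped that of its neighbour in the order, so that this order depends on window placement.

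A second set of members stood lower. ADM, the gene of the vasodilator peptide adrenomedullin, had a mean DMSO level of 9.21 (8.92 to 9.47). TGFA, which encodes a ligand of the epidermal growth factor receptor, had 8.81 (8.32 to 8.97). BNIP3, which encodes a mitochondrial protein that promotes mitophagy, had 8.41 (8.20 to 8.56). The range of TGFA overlapped that of ADM by a narrow margin and also that of BNIP3. NDRG1, which encodes a stress-induced cytoplasmic protein, had 7.23 (6.38 to 8.11), above 76.6% of positions. CXCR4, a chemokine receptor gene, was at the floor in all 9 windows of both sizes and treatments, and no change can be given for it. The order from EPO to CXCR4 was the same with 50 kb windows.

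**Figure D1:**
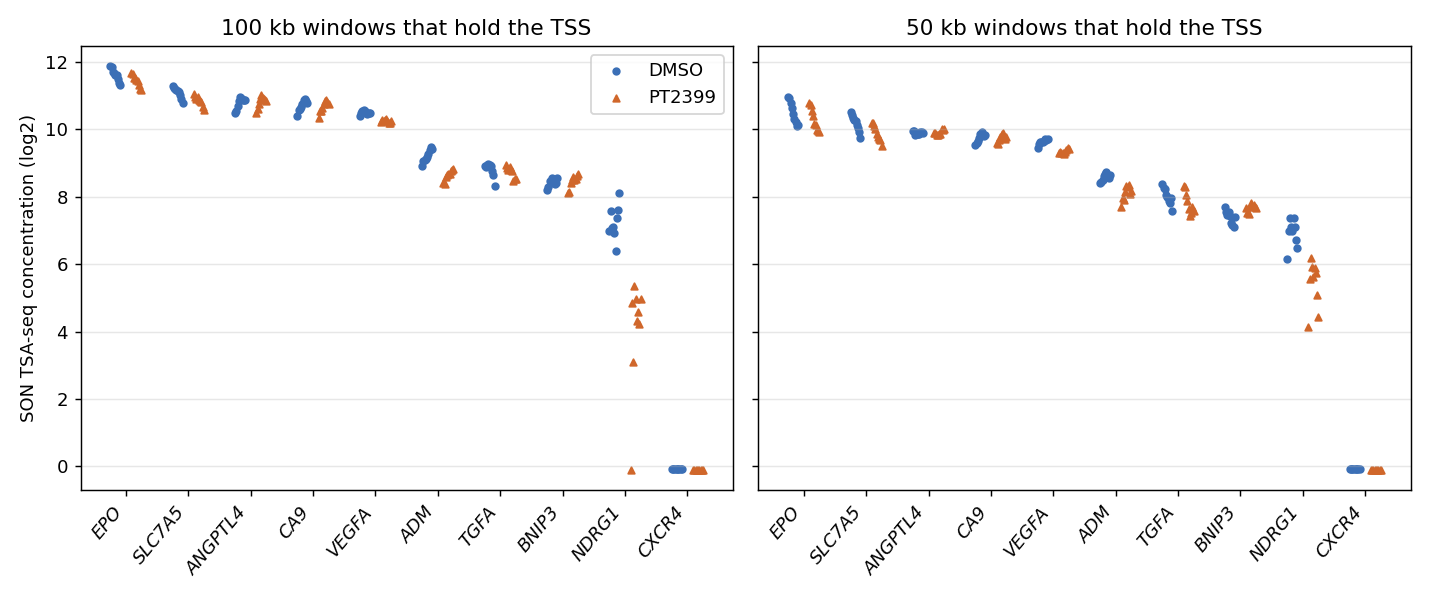
SON concentration (log2) of the windows that hold each TSS, 100 kb on the left and 50 kb on the right, with DMSO as blue circles and PT2399 as orange triangles; each point is 1 of 9 overlapping windows and the genes are ordered by DMSO level. EPO is highest at 11.61 on average at 100 kb, CXCR4 lies at the floor, and the PT2399 points of NDRG1 lie farthest below their DMSO points.

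With PT2399, windows at SLC7A5 and NDRG1 fell at an FDR of at most 0.01, in 3 and 1 of their 9 windows of 100 kb, and 0 windows of any member rose. VEGFA, ADM and EPO were lower in all 9 of their 100 kb windows and passed an FDR of 0.05 in some of them only. ANGPTL4, CA9, TGFA and BNIP3 had mean 100 kb changes between -0.09 and 0.04. None of their 100 kb windows with the TSS had an FDR below 0.6 in the authors' deposited tables. Thus 2 of 10 members held a lower call, against 2.17% of all 10 kb positions of the genome and 5.92% of measured ones. Of the 8 members with all 100 kb windows measured, each at a level above 8, 1 held a call, against 7.09% of positions with a level of 8 or more. At an FDR of at most 0.05 the counts were 5 of 10 members, against 5.11% of all and 13.9% of measured positions, and 4 of those 8, against 17.7%. Of those 8, 5 lay above 95.5% or more of all positions, so a level of 8 or more is a loose match. The share called at each member's own level was not computed. Higher calls, of which the members held 0, were found at 0.661% of all positions. The median change of the 10 members, each taken as the mean over its windows and CXCR4 at the gap between the floors, was -0.13, the same as that of all measured windows. At 50 kb it was -0.20 against -0.12 for all measured windows, and 0 of 10 members held a call in the authors' deposited tables, where 2% of measured positions did. At an FDR of 0.05 it was 1 member (SLC7A5) against 5.71%, and 4 members (VEGFA, ADM, EPO and SLC7A5) had at least 1 lower window of 50 kb at an unadjusted p under 0.05 in the same deposited tables.

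**Figure D2:**
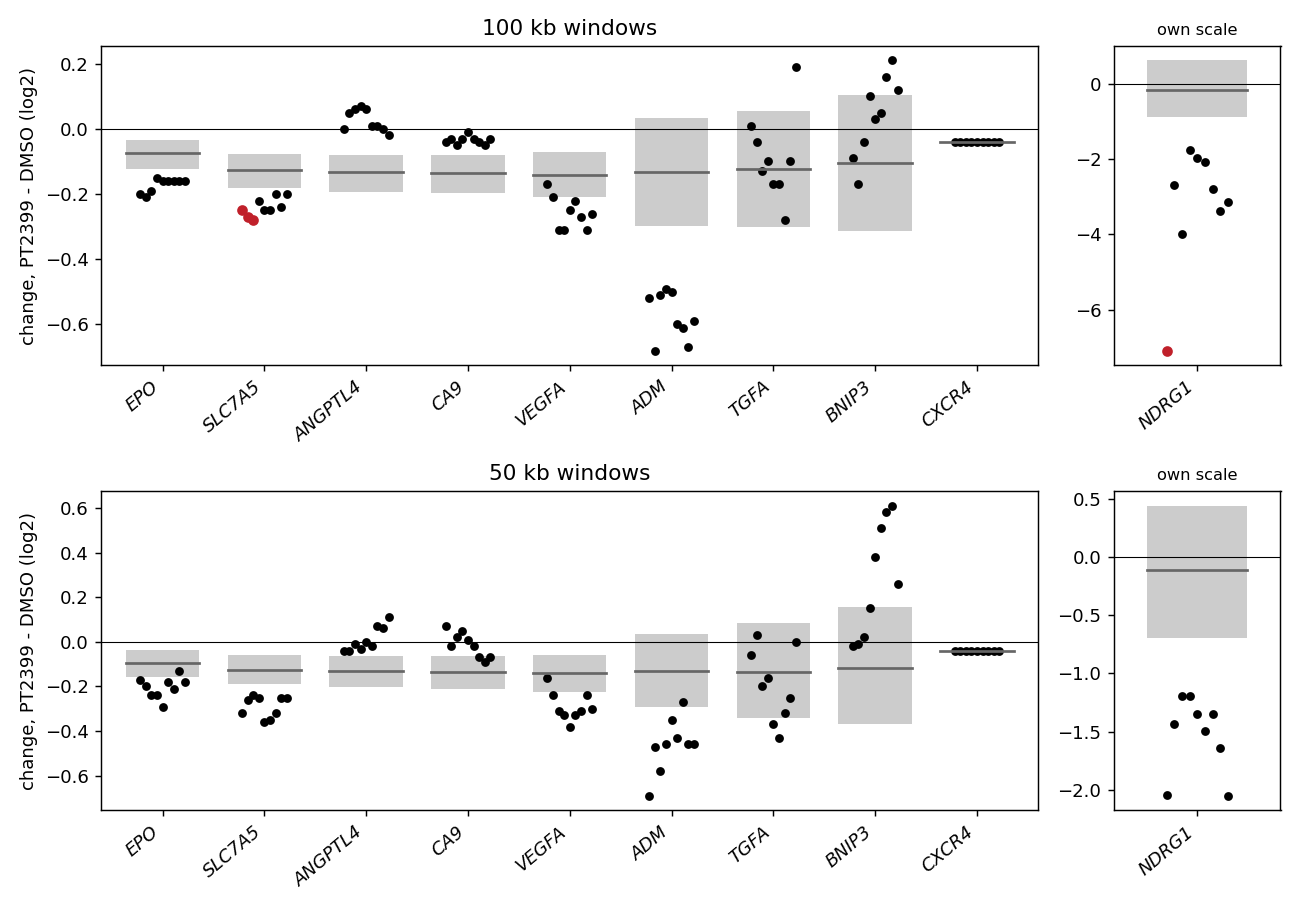
Change in SON concentration (PT2399 minus DMSO, log2) in the 9 windows that hold each TSS, at 100 kb (top) and 50 kb (bottom), ordered within each gene along the chromosome, with NDRG1 on a scale of its own. Red points passed an FDR of at most 0.01; the grey box and line are the quartiles and median of genome positions of the same mean level, and VEGFA, ADM, EPO and SLC7A5 have 100 kb means below the lower quartile while ANGPTL4 and CA9 have means above the upper one.

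Among the secreted factors, ADM had the lowest change of the well-measured members. Its DMSO levels of 8.92 to 9.47 became 8.37 to 8.83 with PT2399, and the ranges of the 2 treatments did not overlap. The change ran from -0.68 to -0.49 with a mean of -0.57, which is 67.2% of the DMSO level. In the authors' deposited tables, 3 of its 9 windows of 100 kb had an FDR of at most 0.05, the lowest 0.0281, and 0 reached 0.01. Across positions within 0.25 log2 of its mean level the median change was -0.13 and the quartiles were -0.30 and 0.03, and 3.47% of the 9348 such positions were lower still than ADM. The window centred nearest the TSS changed by -0.60, with a 95% interval of -0.96 to -0.24 implied by its fold and its p-value in the authors' deposited table. This was the only one of the 9 members above the floor whose 100 kb interval left out -0.13, the median of all measured windows. Of the 90 windows of 100 kb centred within 500 kb of the ADM TSS, 78 were lower, with changes of -0.82 to 0.31 and a median of -0.42, and 0 passed. That is 86.7% lower windows, against 67.5% of all measured ones, and values above 0 lay on both sides of the gene. At 50 kb the mean change of ADM was -0.46 and the interval of its nearest window, -0.93 to 0.01, barely reached 0 and held -0.12, the 50 kb median of measured windows.

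VEGFA was lower in each of its windows, by less than ADM. Its DMSO levels of 10.38 to 10.57 became 10.17 to 10.29, again without overlap, and the mean change of -0.26 corresponds to 83.7% of DMSO. In the authors' deposited tables the FDR ran from 0.0266 to 0.286, with 3 windows at or below 0.05. Of positions of the same level, 13.6% were lower than VEGFA, and their median was -0.14. The nearest window changed by -0.25 (95% interval -0.43 to -0.07, from the p-value in the authors' deposited table). All 90 of the 100 kb windows centred within 500 kb of the VEGFA TSS were lower with PT2399, with a median of -0.20, and 0 of them passed the FDR of 0.01. At 50 kb, 173 of 180 such windows were lower, against 64.3% of all measured 50 kb windows, which take in lower SON levels too. At the 50 kb level of VEGFA the upper quartile of change was -0.06, so a larger share of same-level positions was lower. At 100 kb the lowest change within 500 kb was -0.32, close to the -0.31 of the lowest 100 kb windows with the TSS.

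EPO, at the highest level of all members, had small but even differences. Its levels went from a range of 11.32 to 11.87 with DMSO to 11.16 to 11.67 with PT2399. The ranges overlapped because the level itself declines along the chromosome across the 9 windows, and each window was lower with PT2399, with changes of -0.21 to -0.15. The mean change was -0.17, or 88.7% of the DMSO level, and the lowest FDR was 0.0277 in the authors' deposited tables. At so high a level the median over same-level positions was -0.07, with quartiles of -0.12 and -0.03, and 7.90% of the 2138 positions were lower than EPO. Of all measured windows 67.5% were lower, and with an upper quartile of -0.03 a larger share of same-level positions was. All 90 windows within 500 kb of EPO were lower, with a median of -0.12. Of these, 2 windows that end before the gene passed the test, as did 1.55% of all measured 100 kb windows, at chr7:100020001-100120000 and chr7:100030001-100130000, with changes of -0.19 and -0.20 and FDRs of 0.00708 and 0.00697 in the authors' deposited table.

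TGFA and ANGPTL4 gave no call. TGFA went from 8.32 to 8.97 with DMSO to 8.47 to 8.93 with PT2399, fully overlapping ranges, and its 9 changes lay between -0.28 and 0.19 with a mean of -0.09. Its nearest window had a 95% interval of -0.62 to 0.42 from the p-value in the authors' deposited table, which holds both 0 and -0.13. A region about 250 kb from the TSS did fall at 50 kb. The windows at chr2:70500001-70550000, chr2:70505001-70555000 and chr2:70510001-70560000 changed by -1.34, -1.94 and -1.47, with FDRs of 0.00765, 0.000132 and 0.00117 in the authors' deposited table, where 0.357% of measured 50 kb windows were called lower. The neighbouring genes SNRPG, which encodes a core protein of spliceosomal snRNPs, and FAM136A are in the authors' deposited 50 kb gene list, and TGFA is not.

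ANGPTL4 had levels of 10.48 to 10.94 with DMSO and, with PT2399, a lowest level of 10.48 and a median of 10.88, while its 9 changes lay between -0.02 and 0.07. The mean of 0.03 is 102% of the DMSO level. Of the 6984 positions at the same level, which had a median of -0.13 and quartiles of -0.19 and -0.08, 98.0% were lower than ANGPTL4. The nearest window changed by 0.01 with a 95% interval of -0.14 to 0.16, taken from the typical error of windows at its level, since a fold so near 0 gives no error of its own. The interval holds 0 and only just holds -0.13. By this borrowed error, ANGPTL4 could not be told from the median of measured windows. Within 500 kb, 53 of 90 windows (58.9%) were lower and the median was -0.03.

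The transporter gene SLC7A5 held 3 called windows, and the carbonic anhydrase gene CA9 held 0. SLC7A5 had DMSO levels of 10.78 to 11.28 and PT2399 levels of 10.58 to 11.03. Both decline along the chromosome, and each of the 9 windows was lower with PT2399, with changes of -0.28 to -0.20. The 3 windows that passed lie at chr16:87810001-87910000, chr16:87820001-87920000 and chr16:87830001-87930000, with changes of -0.25, -0.27 and -0.28 and FDRs of 0.0098, 0.00851 and 0.00634 in the authors' deposited tables. The other 6 windows, which reach farther along the chromosome, changed by -0.25 to -0.20 with FDRs of 0.0262 to 0.206 in those deposited tables, so that the called and uncalled windows differ little in size of change. The mean change of -0.24 left 84.7% of the DMSO level, and 8.75% of same-level positions were lower. The nearest window changed by -0.25 with a 95% interval of -0.40 to -0.10, which leaves out 0 and holds -0.13. The DMSO level was highest in the window centred 43 kb before the TSS along the chromosome, the first of the 3 called ones. SLC7A5 lies on the minus strand, so this is the downstream side of its TSS. At the level of SLC7A5 the upper quartile of change was -0.08. A larger share of same-level positions was thus lower than the 67.5% of all measured windows. Within 500 kb of SLC7A5, 87 of 90 windows (96.7%) were lower and the calls were those 3 with the TSS. At 50 kb the mean was -0.29, with a lowest FDR of 0.0232 in the authors' deposited table, and the interval of the nearest window, -0.56 to -0.14, left out the median of -0.12. SLC7A5 is the only member in the authors' deposited 100 kb gene list, and 0 members are in the 50 kb list.

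CA9 went from 10.38 to 10.91 with DMSO to 10.34 to 10.87 with PT2399, with changes of -0.05 to -0.01 in its 9 windows. The mean of -0.03 left 97.6% of the DMSO level, and the lowest FDR was 0.795 in the authors' deposited tables. Same-level positions had a median of -0.14 with quartiles of -0.20 and -0.08, and 88.7% of them were lower than CA9. The interval of the nearest window, -0.20 to 0.14, held both 0 and -0.13. Within 500 kb the median change was -0.04, and 61 of 90 windows (67.8%) were lower. The 67.5% of all measured windows takes in lower SON levels too. At the level of CA9 itself the upper quartile was -0.08, so a larger share of same-level positions was lower. The intervals of the nearest windows of SLC7A5 and CA9 overlapped, and the difference between these genes was not tested.

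**Figure D3:**
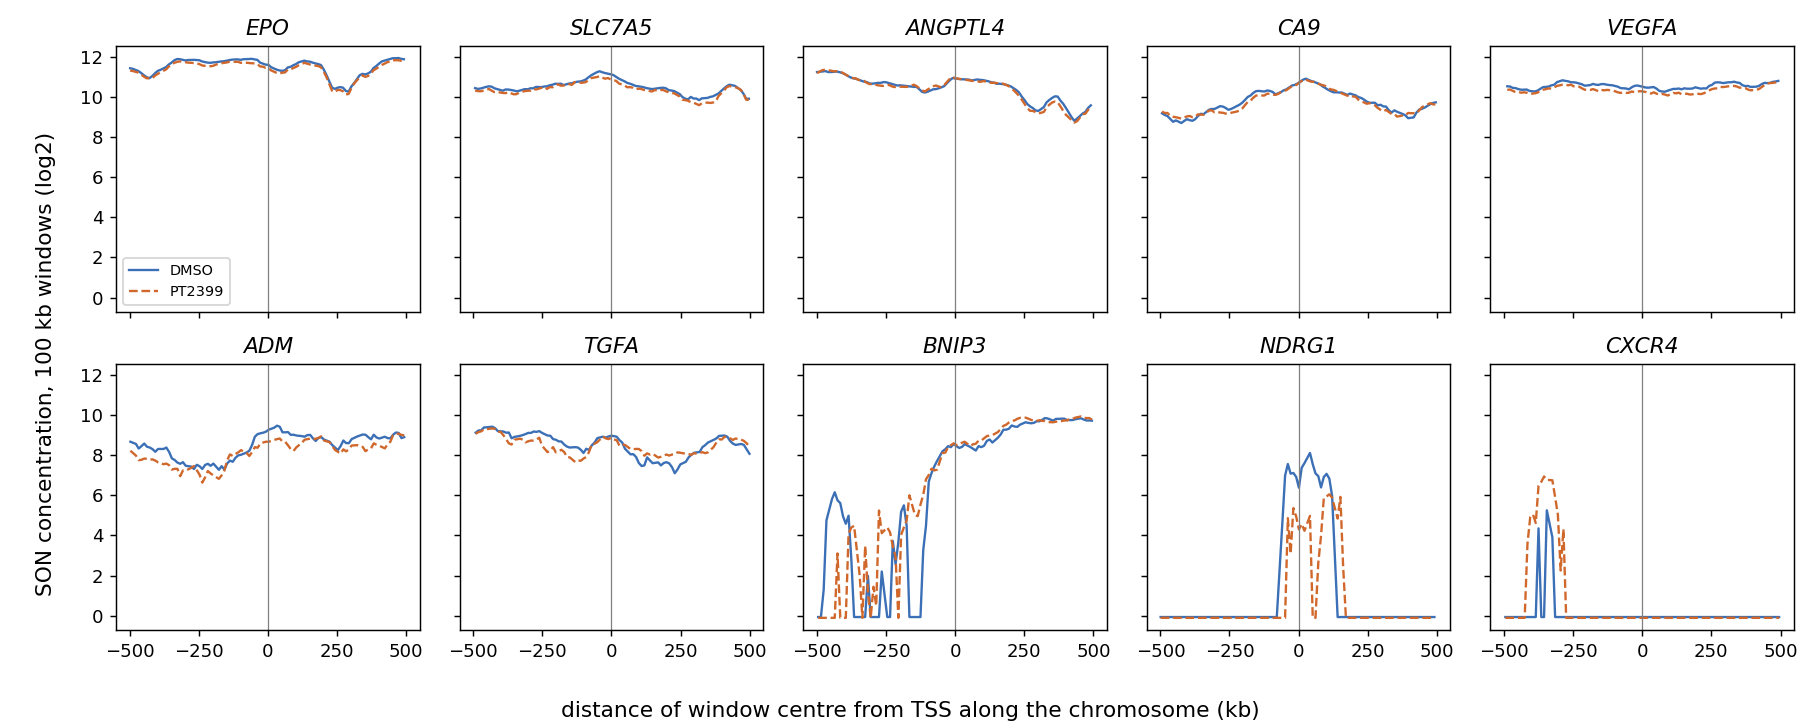
SON concentration (log2) of 100 kb windows centred within 500 kb of each TSS, DMSO as solid blue and PT2399 as dashed orange lines, with the TSS at 0 kb and distance counted along the chromosome. EPO, SLC7A5, ANGPTL4, CA9 and VEGFA lie in wide stretches of high signal, NDRG1 in an island of its own, BNIP3 at an edge, and CXCR4 at the floor.

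Of the intracellular proteins, NDRG1 had the lowest change of the set, from the least DMSO signal above the floor. Its DMSO levels of 6.38 to 8.11 became -0.11 to 5.36 with PT2399, and the ranges did not overlap. The changes ran from -7.09 to -1.75 with a mean of -3.21. One window passed, at chr8:134210001-134310000, from 6.98 to the PT2399 floor, with an FDR of 0.000646 in the authors' deposited table. This window ends within 1 kb of the TSS, and the other 8 windows had FDRs of 0.0578 to 0.494 there. In 2 windows that start after the TSS, at chr8:134310001-134410000 and chr8:134320001-134420000, the level also went to the floor, with changes of -7.66 and -7.20 and FDRs of 1.76e-05 and 0.000771 in the authors' deposited table. Over the genome, 0.614% of all 100 kb windows were called lower. A fold to the floor has no measured level on 1 side and its size depends on the floor. The nearest window changed by -2.08 with an interval of -5.40 to 1.24, which holds 0. Same-level positions also scattered widely, with quartiles of -0.90 and 0.62 around a median of -0.16, and 2.36% of them were lower than NDRG1.

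NDRG1 lies in a narrow island of SON signal. With DMSO, 18 of the 90 windows centred within 500 kb were at 2 or more, from 59 kb before to 121 kb after the TSS, and with PT2399 there were 17, from 39 kb before to 161 kb after. At 50 kb the mean change was -1.53, from 6.16 to 7.37 with DMSO to 4.12 to 6.17 with PT2399, and the lowest FDR of a window with the TSS was 0.455 in the authors' deposited tables. Farther on, the 50 kb window at chr8:134365001-134415000 passed, with a change from 7.63 to 4.14 and an FDR of 0.00945 in the authors' deposited table. In 8 of the 9 windows of 100 kb with the TSS, the PT2399 level was more than 0.1 below that of a 50 kb window inside it, although the wider window covers all of the narrower one. This held for 0 of the 9 with DMSO and for 22.9% of all such PT2399 windows, but for 0.123% where the 50 kb level was 8 or more. The called window with the TSS, at -0.11 with PT2399, holds the 50 kb window chr8:134260001-134310000, which was at 4.12. Likewise the called chr8:134320001-134420000, at -0.11, holds the 50 kb window that passed, at 4.14. The folds of -7.09 and -7.20 thus rest on floor levels that these 50 kb windows do not show. The part of this in the calls at NDRG1 was not tested. NDRG1 is in neither of the authors' deposited gene lists.

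BNIP3 had the highest mean change as deposited, while ANGPTL4 stood higher after the same-level median was subtracted (0.16 against 0.15). Its levels went from 8.20 to 8.56 with DMSO to 8.11 to 8.67 with PT2399, overlapping ranges, with changes of -0.17 to 0.21 and a mean of 0.04. The lowest FDR was 0.673 in the authors' deposited tables, and the nearest window had an interval of -0.48 to 0.54. Of same-level positions, 68.1% were lower. At 50 kb the changes ran from -0.02 to 0.61, with a mean of 0.28 and a lowest FDR of 0.367 in the authors' deposited tables. Of the 90 windows of 100 kb within 500 kb, 32 (35.6%) were lower, with a median change of 0.115, and 0 passed. More than 50 kb after the TSS, 32 of 41 windows were higher. Changes there ran from -0.18 to 0.40, with a lowest FDR of 0.161 in the authors' deposited table. The TSS lies at an edge in the profile of SON level by distance. From the TSS on, the level climbs along the chromosome to 9.85 at 325 kb, and more than 100 kb before it windows drop to the floor in 1 or both treatments, where changes ran from -6.26 to 6.07 over 36 windows and the lowest FDR was 0.0689 in the authors' deposited table.

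CXCR4 had no SON signal above the floor at its TSS, but signal appeared some way before it. With DMSO, 3 of the 90 windows of 100 kb within 500 kb of the TSS reached 2 or more, and with PT2399 there were 13, centred 415 to 285 kb before the TSS. Of these, chr2:136460001-136560000 and chr2:136470001-136570000 rose from the DMSO floor to 6.67 and 6.94, with FDRs of 0.00697 and 0.0013 in the authors' deposited table. Over the genome, 0.139% of all 100 kb windows were called higher, and 0 of the 50 kb windows within 500 kb of CXCR4 were. Both called windows hold the 50 kb window centred at -350 kb from the TSS, whose DMSO level was 5.52. Their rises thus rest on DMSO floor levels that this 50 kb window does not show. The size of a change from the floor depends on the floor, and the part of this in the CXCR4 calls was not tested.

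**Figure D4:**
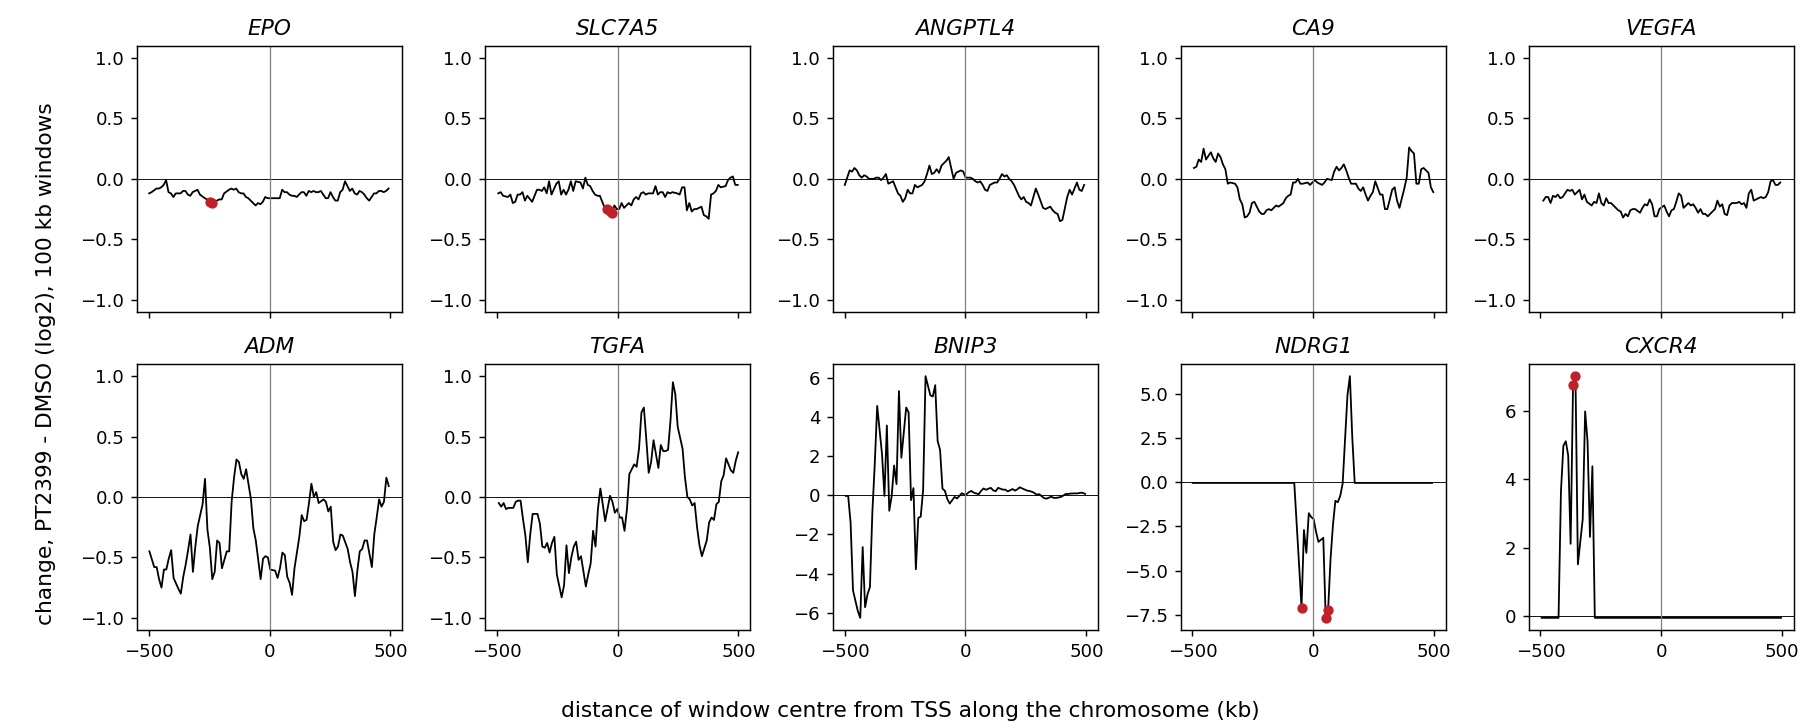
Change in SON concentration (PT2399 minus DMSO, log2) of 100 kb windows by distance from each TSS, with windows at an FDR of at most 0.01 in red; BNIP3, NDRG1 and CXCR4 have wider scales of their own, since windows there reach the floor in 1 treatment. VEGFA and EPO are below 0 in all 90 windows, the SLC7A5 calls lie next to the TSS, and the NDRG1 calls lie on both sides of its TSS.

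Of the 9 members above the floor, 5 had a mean change below the first quartile of positions at the same level (VEGFA, ADM, EPO, SLC7A5 and NDRG1), 2 above the third quartile (ANGPTL4 and CA9) and TGFA and BNIP3 between them. The 95% interval of the nearest 100 kb window left out 0 for 4 of the 9 (VEGFA, ADM, EPO and SLC7A5) and left out the median of measured windows for ADM. At 50 kb these counts were 3 (VEGFA, EPO and SLC7A5) and 1 (SLC7A5), with VEGFA, at -0.64 to -0.12, on the border.

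Other genes of the pathway were counted in the authors' deposited gene lists, since they have no hg19 position here. Of 40 further HIF targets, 39 had an entry in the RefSeq gene table, and 6 of these (15.4%) were in the 100 kb list: CCND1, which encodes cyclin D1, DDIT4, an inhibitor of mTORC1 signalling, P4HA1, a collagen prolyl hydroxylase subunit, POU5F1, the pluripotency factor OCT4, SCARB1, a receptor for high-density lipoprotein, and SLC2A1, the glucose transporter GLUT1. Of the 6, the authors' deposited 50 kb list also held CCND1, DDIT4, P4HA1 and SLC2A1, or 4 of 39 (10.3%). The share of all other protein-coding genes was 4.26% in the 100 kb and 1.09% in the 50 kb list. Several of these genes were known from earlier results of these data to be listed when the 40 were written down, so the counts are no independent evidence. Among the 5 nearest protein-coding genes on each side of the 10 members, 1 of 100 was in the 100 kb list, SWAP70 near ADM, and 2 were in the 50 kb list, SNRPG and FAM136A near TGFA.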

How the data were processed

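The 8 libraries were grouped by title. Named in the submitters' processing notes are hg19, bedtools, DiffBind, Picard and Bowtie2, without version or role. The sources used here do not give the scaling of reads or the use of inputs. For each window the authors deposited, per the file headers, log2 concentrations per treatment, a log2 fold and a p-value with its FDR, each fold being control minus treatment; control was taken as DMSO. The authors' deposited gene lists hold symbols, and the deposited window lists hold positions. No test on values per library could be run, so the authors' FDR was used in place of a count test.

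The members and lists were chosen with earlier results of these data known. Each gene's change was averaged over the 9 windows with its TSS. All 10 members are named; of other HIF targets and of the 5 nearest genes a side, those in a deposited list. Same-level positions were 10 kb (5 kb) steps averaged over their 9 windows. A window's standard error was the size of its fold over the normal quantile that its p-value gives. Where the fold was under 0.1 or p reached 0.9, the error was the median over windows at that level with a fold of at least 0.1 and a p under 0.5; intervals are 1.96 errors wide on each side and assume a normal test statistic. The level medians and errors were tested on simulated data. The simulated p-values came from the same normal formula, so this cannot check the normal assumption. Promoter sequences are RefSeq's (GRCh38.p14). Alternatives covered the FDR threshold, window choice, centring, level tolerance and window size. Scripts used scipy 1.17.1, pandas 2.3.3, numpy 2.4.6 and, for figures, matplotlib 3.10.9 under Python 3.11.15.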

Additional observations from a re-analysis of the deposited data

How the results depend on the processing

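The number of members with a lower call at 100 kb, 2 at an FDR of 0.01, was 5 at 0.05, 5 at 0.1 and 1 at 0.001, and 0 when at least 5 of the 9 windows had to pass; with any window within 250 kb it was 3. At 50 kb it was 0 at 0.01, 1 at 0.05 and 3 at 0.1. The median change of the members at 100 kb, -0.13, was 0.00 (-0.0033) after recentring on measured windows, -0.0475 after subtracting the same-level median and -0.20 with 50 kb windows; at 50 kb it was -0.078 after recentring. Recentring removes the genome's own shift by construction, and the cause of the other differences was not tested. After recentring, 5 of 10 members lay below 0 and 5 above, CXCR4 at the floor among them. All 9 members above the floor kept their sign between 100 kb and 50 kb. TGFA and CA9, below 0 as deposited, lay above 0 after recentring (0.04 and 0.09) and after subtracting the same-level median (0.03 and 0.10), and the other 7 members above the floor kept their sign under each alternative for single genes. No paired analysis was possible because the deposited tables hold 1 mean per treatment and no value per library, and for the same reason no replicate could be left out.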
